A study of Mus musculus with 12 samples.

Results

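The macrophage marker genes followed here are the 10 genes Cd68, Adgre1, Csf1r, Lyz2, Cd14, Mrc1, Ctss, Laptm5, Itgam and Msr1, out of 8251 genes with a probe set of their own, chosen as standard macrophage markers. They were read through all 16 probe sets, of 12422 on the array, whose platform annotation names 1 of these genes and no other. A probe set is a group of short probes that together give 1 value for a transcript. The values come from perigonadal fat of 12 mice, 1 Affymetrix array per mouse, and are array intensities on a linear scale. All mice were labelled female, 6 months old and fed ad libitum. The overexpressors (3 mice) carry a Glut4 transgene driven by the aP2 promoter, and their controls (3 mice) are littermates, both on the FVB strain. The adipose-Glut4-/- mice, called knockouts here (3 mice), lack Glut4 in adipose tissue, and their controls (3 mice) are aP2-Cre transgenic, with a strain label of C57B6/FVB/SV129 mix for both. Glut4, encoded by Slc2a4, is the insulin-responsive glucose transporter of fat and muscle. The promoter may matter for these markers, since aP2 (Fabp4) is made by adipocytes and also by macrophages. The labels do not say in which cells of the fat pad the transgene or the Cre was active, and this was not tested. The tissue was whole fat, so each value sums adipocytes, macrophages and all other cells.

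Macrophages of fat live between the adipocytes, where they clear dead cells and lipid and send out cytokines. They depend on signals through the receptor of colony-stimulating factor 1, and their number is known to increase in obesity. Their standard markers fall into surface receptors (Csf1r, Adgre1, Cd14, Mrc1, Msr1, Itgam) and proteins of the lysosome or of secretion (Cd68, Ctss, Laptm5, Lyz2). Many macrophage promoters carry a purine-rich PU box, which the myeloid transcription factor PU.1 (gene Spi1) is known to bind.

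Promoter sequences from RefSeq (build GRCm38.p6) were read for 6 of the 10 genes. Not read were Adgre1, Csf1r, Cd14 and Msr1, which had no entry or lay on a chromosome left out of this search. Of the 6, those of 4 genes whose levels moved together across arrays, as described below, are shown. Each runs 5′ to 3′ along the gene, from 250 bases before to 50 bases after the annotated start, and capitals mark the PU box letters GAGGAA on either strand (TTCCTC on the strand shown), with no other motif searched.
Mrc1 promoter, chr2:14229164-14229463, plus strand: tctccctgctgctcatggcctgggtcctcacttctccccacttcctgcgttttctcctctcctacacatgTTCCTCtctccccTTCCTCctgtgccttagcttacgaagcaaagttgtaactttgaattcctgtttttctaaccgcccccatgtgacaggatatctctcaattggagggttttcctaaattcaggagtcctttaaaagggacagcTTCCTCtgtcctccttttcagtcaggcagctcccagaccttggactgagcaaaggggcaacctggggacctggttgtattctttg
Cd68 promoter, chr11:69666121-69666420, minus strand: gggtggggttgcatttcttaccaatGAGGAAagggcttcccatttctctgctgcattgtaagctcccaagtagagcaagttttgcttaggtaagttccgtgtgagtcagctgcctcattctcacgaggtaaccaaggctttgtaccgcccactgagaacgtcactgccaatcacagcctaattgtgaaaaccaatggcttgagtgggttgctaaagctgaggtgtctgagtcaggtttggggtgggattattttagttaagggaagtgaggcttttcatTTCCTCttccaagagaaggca
Ctss promoter, chr3:95526536-95526835, plus strand: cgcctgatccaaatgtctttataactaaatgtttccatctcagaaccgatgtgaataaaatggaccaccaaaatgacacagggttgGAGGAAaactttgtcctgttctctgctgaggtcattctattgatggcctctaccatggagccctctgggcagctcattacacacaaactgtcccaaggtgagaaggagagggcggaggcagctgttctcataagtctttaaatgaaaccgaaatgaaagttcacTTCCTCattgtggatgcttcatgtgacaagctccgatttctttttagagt
Lyz2 promoter, chr10:117282223-117282522, minus strand: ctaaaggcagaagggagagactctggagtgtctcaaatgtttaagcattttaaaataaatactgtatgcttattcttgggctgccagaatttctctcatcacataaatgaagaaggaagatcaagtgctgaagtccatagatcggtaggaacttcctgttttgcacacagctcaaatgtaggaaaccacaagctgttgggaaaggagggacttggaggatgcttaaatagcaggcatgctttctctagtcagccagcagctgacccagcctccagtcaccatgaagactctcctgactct
These letters were found in 5 of the 6 windows, at 3 places each in Mrc1 and Itgam, at 2 each in Cd68 and Ctss and at 1 in Laptm5, and in none for Lyz2. Of 32851 promoter windows of the same length, with no chromosome left out, 9289 (28.3%) hold them. In Ctss the letters on the opposite strand begin at the annotated start. In Mrc1 the nearest match to the start spans bases -35 to -30, and in Laptm5 bases -38 to -33. A match of 6 letters is a description of the window and not a binding site.

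The markers were present in this tissue. Of the 10 genes, 9 had a probe set bright enough to be tested (10 probe sets, since Laptm5 has 2), which required a mean over the 12 arrays among the upper 60% of the array. The remaining 6 probe sets were too dim. These were the only probe set of Itgam, which encodes the CD11b chain of complement receptor 3, and second probe sets of Cd68, Adgre1, Csf1r, Lyz2 and Msr1. Those of Cd68 and Adgre1 lay at the smallest value of their line on every array, except knockout 2 for Cd68, at 22.7. Msr1 passed the limit only through its values in the knockout line, and its level in the overexpressor line (57.4 to 90.2) was dim. Each line has its own smallest value (21.9 in the overexpressor line and 22.27 in the knockout line), so the lines may have been processed separately, and no level is compared between them.

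In the overexpressor comparison, which asks how extra Glut4 in fat changes these genes, none of the 10 tested probe sets passed the test. The test was limma on log2(intensity + 36.92), with Benjamini-Hochberg adjustment over 7454 probe sets, and the members' adjusted p ran from 0.913 to 0.969. Across all probe sets 0.0805% were called. At an unadjusted p under 0.05 the members also gave 0, against 4.76% of all probe sets. All 9 genes had a lower mean in overexpressors, with a median log2 change of -0.27, but so did 70.3% of all tested probe sets, whose median was -0.07. Without the dim Msr1, 8 of 8 were lower, with a median of -0.28. In tissue RNA, a change in the number of macrophages and a change in RNA per macrophage cannot be told apart.

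Csf1r encodes the receptor for colony-stimulating factor 1 and interleukin 34, on which macrophage survival depends. It read 793, 732 and 793 in overexpressors and 1334, 1004 and 743 in their controls. The overexpressors lay close together, controls 1 and 2 lay above all 3 of them, and control 3 lay among them. The log2 change was -0.36 (95% interval -0.77 to 0.05). Adgre1 encodes F4/80, the adhesion G protein-coupled receptor by which mouse macrophages are commonly stained. Its intensities were 206, 200.3 and 235 in overexpressors, against 412, 294 and 176 in controls, with the controls on both sides of the overexpressors. Its log2 change was -0.34 (95% interval -0.88 to 0.21).

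Mrc1 encodes the mannose receptor CD206, which takes up glycoproteins and marks tissue-resident macrophages. Of the members it had the lowest log2 change, -0.52 (95% interval -1.16 to 0.12). It measured 516, 527.5 and 549.8 in overexpressors, an SD of 17.2 around a mean of 531, and 1199, 750.4 and 514 in controls, an SD of 348 around a mean of 821. The lowest control lay just below all 3 overexpressors, so the groups overlapped. Cd14, the co-receptor that hands bacterial lipopolysaccharide to Tlr4, read 633, 646 and 734 in overexpressors and 1037, 819.8 and 576 in controls, a log2 change of -0.23 (95% interval -0.62 to 0.17). Controls 1 and 2 lay above all 3 overexpressors and control 3 below them.

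Msr1 encodes the class A scavenger receptor, which binds modified lipoproteins. At these dim levels it read 57.4, 68.5 and 64.3 in overexpressors and 90.2, 66.0 and 66.6 in controls, and only control 1 stood apart. The change was -0.14 (95% interval -0.42 to 0.14) on the log2 scale, where the added constant shrinks changes of dim probe sets. Its second probe set, not tested, measured 132, 130.3 and 132 in overexpressors, against 191, 136 and 113 in controls, with the same control at the top. Itgam, also not tested, measured 101, 80.8 and 75.6 in overexpressors and 106, 102 and 96.1 in controls. Without a filter on dim probe sets its log2 change was -0.18 (95% interval -0.42 to 0.06, limma adjusted p = 0.951 over 12422 probe sets), and overexpressor 1 lay within the range of the controls.

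The markers of the lysosome showed the same arrangement. Cd68, the heavily glycosylated protein macrosialin of late endosomes, had intensities of 444, 355 and 438 in overexpressors and 734, 507 and 338 in controls, a log2 change of -0.27 (95% interval -0.78 to 0.23). Its controls lay on both sides of the overexpressors. Ctss, cathepsin S, a cysteine protease that trims the invariant chain for antigen presentation, read 663, 585 and 663 in overexpressors and 1173, 667 and 419.7 in controls. Its controls spanned 2.79-fold from lowest to highest, the widest span of any member in any group, and its change was -0.12 (95% interval -0.73 to 0.50). All 3 overexpressors fell between control 3 and control 2.

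Laptm5 encodes a lysosomal membrane protein of blood-derived cells. Its brighter probe set measured 933, 799.6 and 1014 in overexpressors and 1758, 1010.4 and 786 in controls, a log2 change of -0.29 (95% interval -0.83 to 0.25). The other measured 584, 639 and 689.7 in overexpressors and 1149, 724 and 609.9 in controls, at -0.31 (95% interval -0.77 to 0.14), and both put control 1 highest. Lyz2, lysozyme M, which cleaves bacterial cell walls, read 837, 943 and 1009 in overexpressors, against 1787, 1119.55 and 711 in controls, a log2 change of -0.27 (95% interval -0.91 to 0.36). A further probe set, named for both Lyz2 and its near-identical neighbour Lyz1 and so not counted as a member, gave 1522, 1041 and 1252 in overexpressors and 2437, 1588 and 876 in controls. Probes for such close copies can read both transcripts, so Lyz2 cannot be fully separated from Lyz1.

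**Figure D1:**
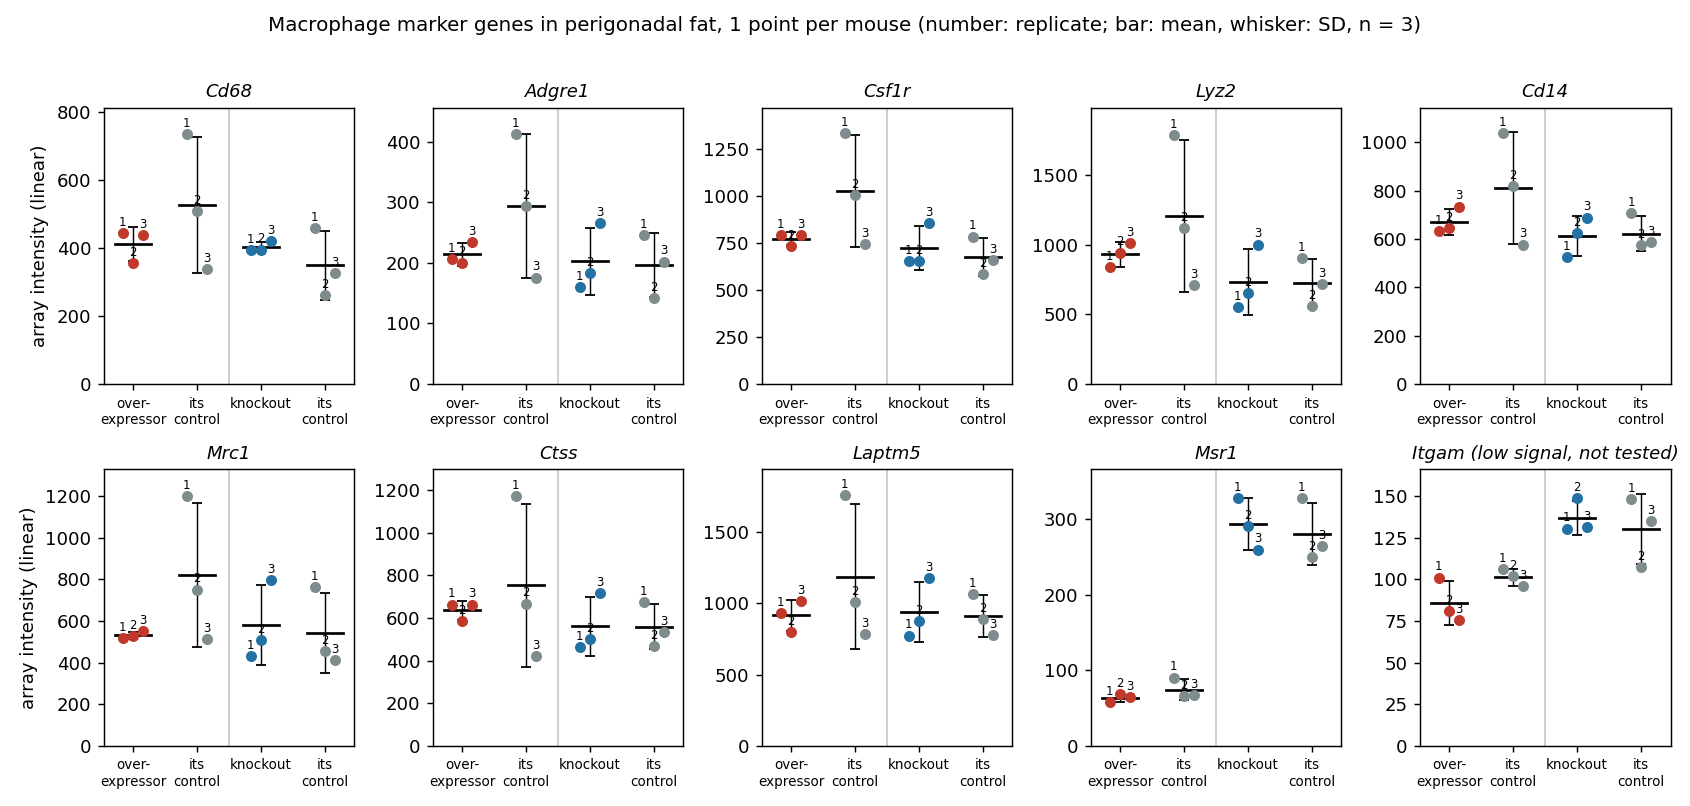
Array intensity (linear axis from 0) of 9 tested macrophage marker genes and of Itgam in each of the 12 mice, by group, with the replicate number at each point, the mean as a bar and the SD as a whisker (n = 3). In most panels the 3 overexpressors sit close together between a high control 1 and a low control 3, and the knockout groups overlap; levels are not compared between the lines.

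None of the 10 tested probe sets separated overexpressors from controls, while 8.77% of all probe sets did, in either direction. Msr1 is left out of the counts that follow, as it was dim in this line. Control 3 was the lowest of the line for 7 of the other 8 genes (13.5% of all probe sets). For 7 of the 8 genes all 3 overexpressors lay between the lowest and the highest of their controls, an arrangement found for 18.8% of all probe sets. Control 1 lay above all 3 overexpressors for 8 of 8 genes (48.4% of all probe sets) and control 2 for 7 (36.7%), while control 3 lay below all 3 overexpressors for 7 (17.4%). Control 1 was the highest of the line's 6 arrays for all 8 genes, against 39.8% of all probe sets. With Msr1, the median log2 change of the 9 genes was -0.04 without control 1 and -0.53 without control 3, and no member was called either way.

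The overexpressors were closer to each other for these genes than their controls were. The SD of log2 values among overexpressors was below that of their controls for 8 of these 8 genes, against 50.2% of all probe sets. Its median was 0.11 in overexpressors (range 0.04 to 0.17) and 0.56 in controls (range 0.41 to 0.70), where the median of all probe sets was 0.149 in overexpressors and 0.146 in controls. The count was 8 of 8 without each array of the line in turn, while the share of all probe sets ran from 38.9% without control 1 to 75.6% without overexpressor 1. The control median SD was 0.37 without control 1 and 0.41 without control 3. For Msr1 the SD was 0.081 in overexpressors and 0.17 in controls, on dim values whose SD the added constant shrinks. An SD over 3 arrays is itself imprecise. The 8 genes moved together across arrays and are not 8 independent observations of it, and the difference in spread was not tested.

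**Figure D2:**
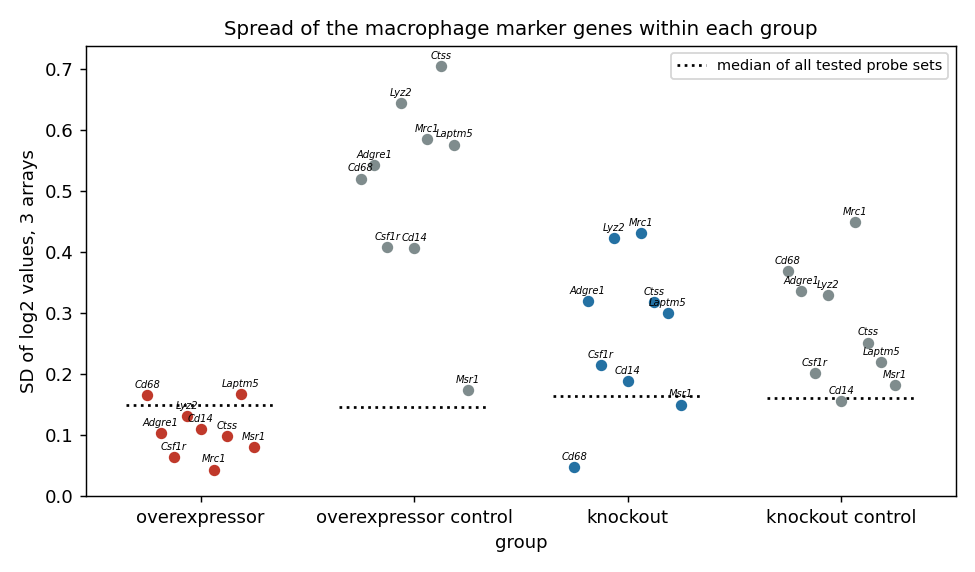
SD of log2(intensity + 36.92) over the 3 arrays of each group (vertical axis, from 0) for each of 9 macrophage marker genes, with the median of all tested probe sets as a dotted line. The genes lie at 0.04 to 0.17 in overexpressors and at 0.17 (the dim Msr1) to 0.70 in their controls, and overlap in the knockout line, at 0.05 to 0.43 in knockouts and 0.16 to 0.45 in their controls.

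In the knockout comparison, which asks what loss of Glut4 from fat does to these genes, again none of the 10 tested probe sets passed. Limma's adjusted p was 1 for every one of them, and 0.121% of all probe sets were called. The smallest unadjusted p among the 9 genes was 0.360, and 3.98% of all probe sets had one under 0.05. The median log2 change of the members was 0.04, equal to that of all probe sets to 2 decimals, with 6 genes higher and 3 lower. Of all probe sets, 63.0% were higher.

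Cd68 had the highest log2 change of the members, 0.22 (95% interval -0.28 to 0.72). Its 3 knockouts lay close together at 393, 395 and 419.75, inside the range of the controls, which read 458, 261 and 327. The change was 0.05 without control 2 and 0.42 without control 1, and was not called either way. For Csf1r the intensities were 652, 655 and 857 in knockouts and 784, 584 and 657 in controls, a log2 change of 0.09 (95% interval -0.32 to 0.50). Here 1 knockout was the highest array of the line and the other two lay within the controls. Adgre1 measured 160.05, 183 and 265 in knockouts, against 245, 141 and 202 in controls, at 0.04 (95% interval -0.50 to 0.58), with knockout 3 again the highest array.

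Mrc1 spread widely in both groups, at 432, 509 and 798 in knockouts and 763, 456 and 409.9 in controls, and its log2 change was 0.09 (95% interval -0.55 to 0.73). For Lyz2 the values were 550.1, 653 and 999.75 in knockouts and 902, 558 and 716 in controls, and the means on the log2 scale were equal to 2 decimals, with a 95% interval of -0.64 to 0.64. The probe set shared with Lyz1 gave 749, 842 and 1405 in knockouts, against 1252, 605 and 1010.5 in controls. Cd14 read 523.5, 623 and 688 in knockouts and 707, 574 and 586 in controls, with a log2 change of -0.03 (95% interval -0.42 to 0.37). For these genes the lowest array of the line was a knockout in some cases and a control in others.

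Ctss intensities were 462, 502 and 718 in knockouts and 675, 468 and 533 in controls, a log2 change of -0.003 (95% interval -0.62 to 0.61). Laptm5 read 773, 873 and 1175 in knockouts and 1063, 890.5 and 775 in controls on its brighter probe set, a log2 change of 0.04 (95% interval -0.50 to 0.58). On the other it read 492, 572 and 659 in knockouts, against 656, 559 and 434 in controls, a change of 0.07 (95% interval -0.39 to 0.52). Msr1 measured 328, 291 and 259 in knockouts and 327, 249.8 and 264 in controls, a log2 change of 0.06 (95% interval -0.22 to 0.34). Unlike the other members it was higher in knockout 1 than in knockout 3. Itgam measured 130.5, 149 and 131 in knockouts, against 148, 107 and 135 in controls, and without a filter its log2 change was 0.06 (95% interval -0.18 to 0.30, limma adjusted p = 1).

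**Figure D3:**
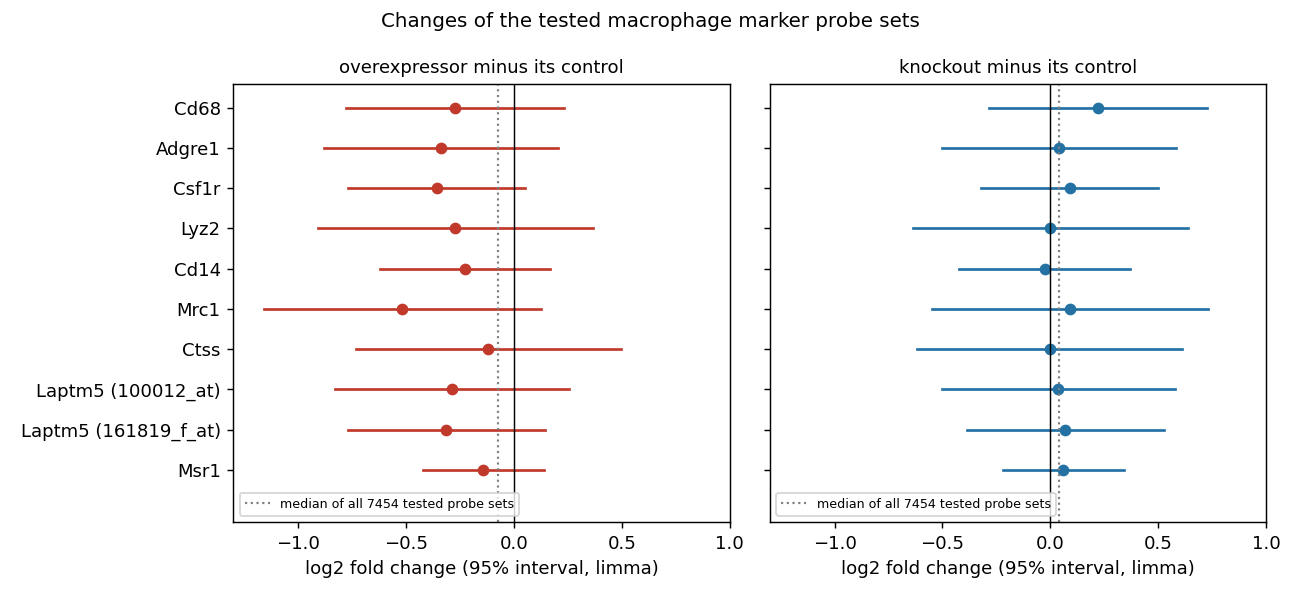
Log2 fold change with its 95% interval from limma for each of the 10 tested macrophage marker probe sets, in overexpressors against their controls (left) and knockouts against theirs (right), with the median of all 7454 tested probe sets dotted. All 20 intervals include 0; the points lie between -0.52 and -0.12 on the left and between -0.03 and 0.22 on the right.

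The knockout groups overlapped for every tested member, while 7.51% of all probe sets did not overlap. The exception among dim probe sets was the second one of Csf1r, at 38.45, 44.9 and 42.3 in knockouts and 37.5, 33.6 and 38.3 in controls, close to the table's smallest value, with a log2 change of 0.10 when no filter was set (limma adjusted p = 1). Knockout 3 was the line's highest array for 6 of the 9 genes (37.4% of all probe sets). Without it the list median was -0.13. The median was 0.16 without knockout 1 and 0.16 without control 1, -0.01 without control 2 and 0.004 without control 3, with no member called. The half-width of the 95% interval ran from 0.28 for Msr1 to 0.64 for Mrc1 in both comparisons. It is the same in both because limma's variance of a probe set was shared by all groups, so it does not show equal precision. The number of arrays limits this precision, and for Msr1 the added constant shrinks the spread of its dim values.

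The difference between both effects, overexpressor change minus knockout change, was negative for all 9 genes, from -0.61 for Mrc1 to -0.12 for Ctss. It was not called for any of them (limma adjusted p 0.893 to 0.960), with 0.161% of all probe sets called and 72.5% negative. None had an unadjusted p under 0.05, against 4.95% of all probe sets. The intervals of all 9 differences included 0. Msr1, among these genes, was dim in the overexpressor line. Without overexpressor control 1 the overexpressor change was 0.05 for Lyz2 and 0.25 for Ctss, beside knockout changes of 0.00 and -0.003. The differences of Lyz2 and Ctss thus turned positive without that array, and those of the other genes stayed negative.

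The members other than Msr1 varied together across mice. After each gene was centred on the mean of its line's 6 arrays, the 36 pairs of genes, Msr1 included, had a median Pearson correlation of 0.90 over the 12 arrays. The lowest was 0.42 (Ctss and Msr1) and the highest 0.98. Without Msr1 the lowest was 0.82 (Cd68 and Lyz2). A single gene correlated with the mean of the other 8 at 0.89 to 0.97, apart from Msr1 at 0.51. Within the overexpressor line the median over pairs was 0.94 (lowest 0.70), and within the knockout line it was 0.82 (lowest -0.11). The pairs share their arrays and whatever scaling was applied to them. Single probe sets of any kind had a median correlation of 0.25 with the members' mean over the 12 arrays. Their upper decile was 0.72, and 0.86 within the overexpressor line. These are correlations with a mean and not between pairs of genes. In the centred values, the members' mean was -0.16, -0.21 and -0.06 in overexpressors, against 0.65, 0.12 and -0.35 in their controls. It was -0.16, -0.05 and 0.29 in knockouts, against 0.26, -0.24 and -0.11 in their controls.

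**Figure D4:**
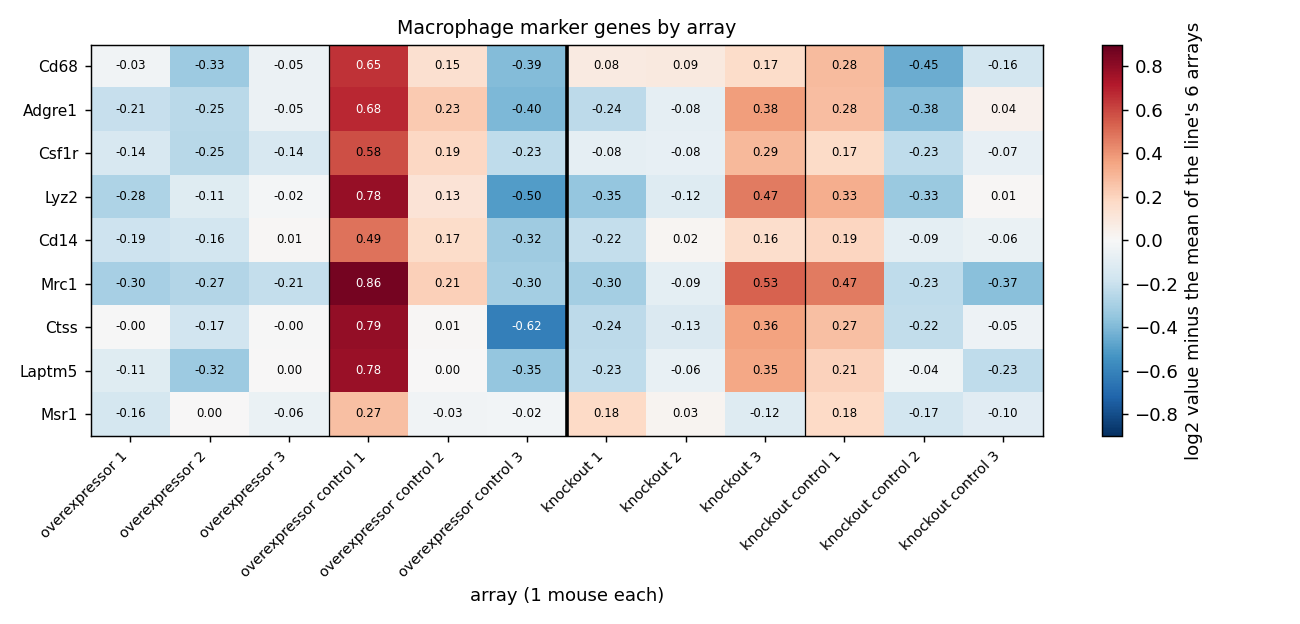
Log2 value of each macrophage marker gene (rows) on each array (columns), minus the mean of that gene over its line's 6 arrays, in colour and as a number. Overexpressor control 1 is red for every gene (0.27 for the dim Msr1 to 0.86), overexpressor control 3 is blue (-0.62 to -0.02), and in the knockout line knockout 3 and knockout control 1 are red for all genes but Msr1 in knockout 3.

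Genes outside the list with the most similar pattern were ranked by the same correlation over 12 arrays among 5698 other genes. The highest was Bgn, at 0.99, which encodes the matrix proteoglycan biglycan. Bgn read 1883, 1690.05 and 2002 in overexpressors and 3966, 2349.9 and 1573 in controls, and 1818, 2205 and 2782 in knockouts and 2441, 1718 and 1919.8 in their controls, with overexpressor controls 1 and 2 and knockout 3 the highest arrays of their lines, as for Csf1r. The next were Kif1a (0.97), a kinesin motor, Pld3 (0.97), a lysosomal exonuclease, and Thbs3 (0.97), a thrombospondin of the matrix. Pirb (0.95), an inhibitory receptor of myeloid cells, Sfrp4 (0.95), a secreted Wnt-binding protein, Ccl9 (0.95), a chemokine of myeloid cells, Fermt3 (0.95), which activates integrins in blood cells, Lmo2 (0.95), a blood and endothelial transcription regulator, and C1qa (0.95), a chain of complement C1q, completed the first 10.

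Of the other macrophage genes listed, 23 of 46 could be tested, and 6 were higher and 17 lower in overexpressors (median log2 change -0.20), with 0 called by limma for the probe set that stands for each gene, and 4 past an unadjusted p of 0.05 (1 higher, 3 lower). In knockouts 14 were higher and 9 lower (median 0.08), again with 0 called, and 0 past an unadjusted p of 0.05. Of all probe sets, 70.3% were lower in overexpressors and 63.0% were higher in knockouts. An unadjusted limma p under 0.05 was found for 4.76% of them in overexpressors and 3.98% in knockouts. C1qa, which opens the classical complement pathway and is made by tissue macrophages, gave 1588, 1394 and 1586 in overexpressors and 2545, 1816 and 1409 in controls. Folr2, a folate receptor of resident macrophages, gave 487, 488 and 571 in overexpressors, against 1107, 724 and 570.3 in controls, where the log2 change of -0.55 had an unadjusted limma p of 0.0188 (adjusted p = 0.901). Both put control 1 at the top, as the members did. For C1qa this followed from its choice among the 10 genes most correlated with the members. Over the 23 genes this correlation ran from 0.95 to -0.39.

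Mmp12, macrophage elastase, did not follow them. The probe set that stands for it, with the higher mean over 12 arrays, read 179, 134 and 187 in overexpressors and 82.95, 48.5 and 57.2 in controls, with no overlap, a log2 change of 1.03 (limma adjusted p = 0.0803). The other, named here after its values were seen, read 406, 276 and 376 in overexpressors and 147, 125 and 111 in controls and was called (1.23, limma adjusted p = 0.00216), with the difference from the knockout effect also called (1.17, limma adjusted p = 0.0332). This probe set passed the filter only through the overexpressors, since its other 9 arrays read 111 to 147. Without a filter its overexpressor change was still called (limma adjusted p = 0.0236), the difference was not (adjusted p = 0.141), and the first probe set, which is dim in this line, had an adjusted p of 0.242. Over the 12 arrays their centred values correlated at -0.23 and -0.21 with the members' mean. Cx3cr1, the fractalkine receptor, and Fcgr1, a high-affinity receptor for immunoglobulin G, also had negative correlations with it (-0.37 and -0.39). Both were chosen after their values were seen, as the lowest of the 23 genes.

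The lists ordered by the members' own functions had 0 limma calls in either comparison, and 0 genes past an unadjusted p of 0.05. Of all probe sets, 4.76% passed that unadjusted limma p in overexpressors and 3.98% in knockouts. Beside the counts of direction below, 70.3% of all probe sets were lower in overexpressors (median -0.07) and 63.0% were higher in knockouts (median 0.04). Among Csf1 and its partners and the myeloid transcription factors, 1 of 11 tested genes was higher and 10 were lower in overexpressors (median -0.09), and 4 were higher and 7 lower in knockouts (-0.03). Csf1, the ligand itself, averaged 599 ± 23.9 in overexpressors and 656 ± 133 in their controls (SD, n = 3 each). Of 7 tested genes of lipopolysaccharide signalling, 2 were higher in overexpressors (median -0.14) and 6 in knockouts (0.05). For beta2 integrins and their partners these counts were 1 of 4 (median -0.06) and 4 of 4 (0.11).

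Lysosomal proteases and antigen presentation genes were higher for 4 of 17 in overexpressors (median -0.09) and for 15 of 17 in knockouts (0.09). Ctsc, a cathepsin that activates serine proteases of leukocytes, gave 467, 531 and 503 in overexpressors, against 1198, 787.5 and 499.7 in controls. Its controls 1 and 2 lay above all 3 overexpressors and control 3 among them. Lysosomal membrane proteins were higher for 0 of 9 in overexpressors (-0.16) and for 7 of 9 in knockouts (0.05). Scavenger and lectin receptors were higher for 1 of 5 (-0.12) in overexpressors and 3 of 5 (0.06) in knockouts, and relatives of Adgre1 for 0 of 2 (-0.26) and 2 of 2 (0.12). Of all probe sets, 70.3% were lower in overexpressors and 63.0% were higher in knockouts. None of these counts was tested as a set.

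Markers of other cells in the fat pad were read beside the members, as the mean centred log2 value of each list. Those of monocytes (5 tested genes) ran from -0.29 to -0.10 in overexpressors and from -0.27 to 0.65 in controls. General leukocyte genes (13) ran from -0.11 to 0.03 in overexpressors and from -0.17 to 0.32 in controls, and these lists correlated with the members at 0.95 and 0.94 over 12 arrays. Fibroblast and preadipocyte genes (11) ran from -0.29 to -0.05 in overexpressors and from -0.11 to 0.44 in controls, at a correlation of 0.90. Smooth muscle and pericyte genes (9) correlated at 0.84, from -0.27 to -0.07 in overexpressors and from -0.24 to 0.43 in controls, and mesothelial genes (5) at 0.82, from -0.29 to -0.04 in overexpressors and from -0.24 to 0.68 in controls. Within the knockout line's 6 arrays the correlation was 0.94 for monocyte, 0.93 for leukocyte, 0.90 for fibroblast, 0.69 for smooth muscle and 0.39 for mesothelial genes. At an unadjusted limma p under 0.05, passed by 4.76% of all probe sets, 5 of the 11 fibroblast, 4 of the 9 smooth muscle, 2 of the 6 mast cell, 2 of the 9 endothelial and 1 of the 5 monocyte genes were lower in overexpressors, 1 adipocyte gene was lower and 1 neutrophil gene was higher, and none was called. In knockouts (3.98% of all probe sets) 1 smooth muscle gene, 1 adipocyte gene and 1 B cell gene were higher and 1 neutrophil gene was lower. In each of these 5 lists overexpressor control 1 was the highest array of its line, as it was for the members. In the knockout line the same lists overlapped between groups, the monocyte list at -0.12 to 0.14 in knockouts and -0.06 to 0.16 in controls, and the fibroblast list at -0.24 to 0.19 in knockouts and -0.08 to 0.25 in controls. Their part in the members' values was not tested.

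The remaining lists had lower correlations with the members. Mast cell genes (6) ran from -0.14 to -0.11 in overexpressors and from -0.03 to 0.27 in controls (correlation 0.72), and endothelial genes (9) from -0.29 to 0.06 in overexpressors and from -0.05 to 0.25 in controls (0.65), with control 1 again the highest array for both. In the knockout line mast cell genes ran from -0.05 to -0.03 in knockouts and from 0.02 to 0.06 in controls. They correlated at 0.07 with the members there. This list's means did not overlap between groups in either line. Of single probe sets, 8.77% did not overlap in overexpressors and 7.51% in knockouts, each line on its own. No such share was computed for means of lists or for both lines at once. The mast cell list is 1 of 20 lists read beside the members. Among its genes, Tpsab1 was dim in the overexpressor line (21.9 to 149) and passed the filter only through the knockout line (555 to 671). It is also among the mast cell genes counted above as lower. Endothelial genes ran from -0.30 to 0.27 in knockouts and from -0.10 to 0.10 in controls. B cell genes (6) correlated at 0.40, dendritic cell genes (5) at -0.26, neutrophil genes (12) at -0.40 and T cell genes (6) at -0.43, and of all these lists' genes the immunoglobulin gene Ighm alone was called by the probe set that stands for it, in knockouts (1636, 2356 and 1742, against 842, 602 and 658 in controls, log2 change 1.40, limma adjusted p = 0.0160). Adipocyte genes (9) ran from -0.30 to 0.15 in overexpressors and from -0.17 to 0.15 in controls, and correlated at -0.28. In the knockout line the adipocyte list ran from -0.06 to 0.11 in knockouts and from -0.10 to -0.01 in controls.

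**Figure D5:**
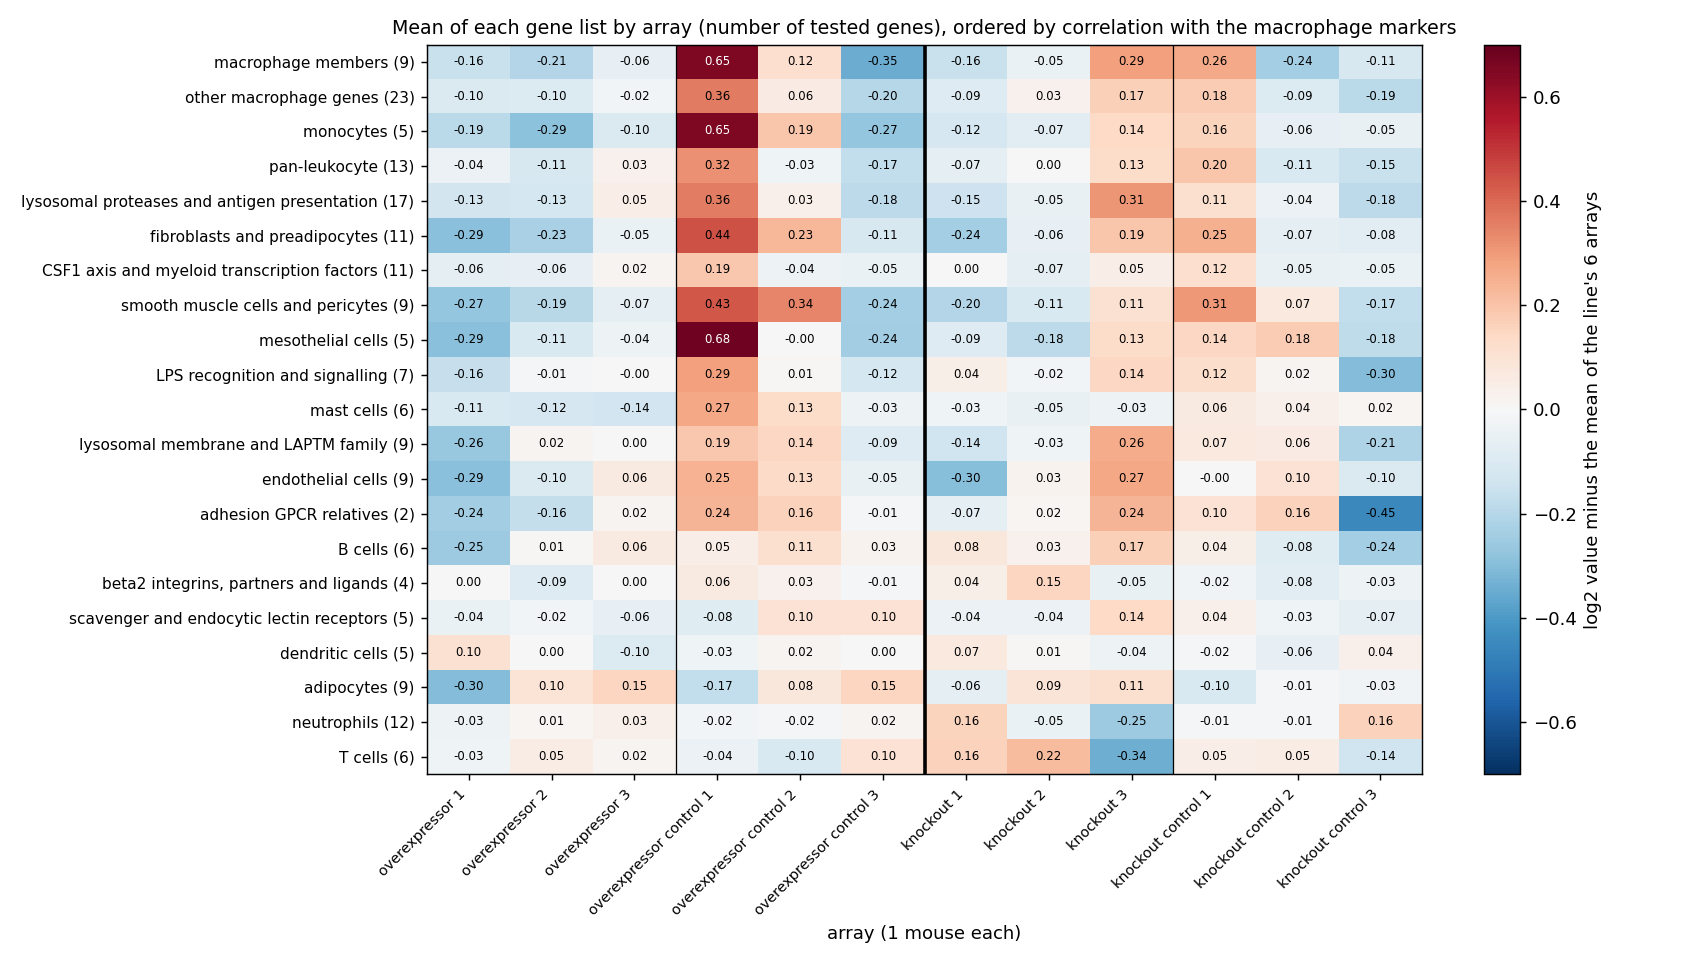
Mean centred log2 value of each gene list (rows, with the number of tested genes) on each array (columns), in colour and as a number, ordered by correlation with the macrophage marker genes. Overexpressor control 1 is high for the macrophage, monocyte, leukocyte, fibroblast, smooth muscle and mesothelial lists (0.32 to 0.68), and the adipocyte, dendritic, neutrophil and T cell lists at the foot do not follow it.

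Array medians ran from 185.8 to 219.4, with overexpressor control 1 the highest, and centring the arrays on their medians put the members' median log2 change at -0.21 for overexpressors and 0.004 for knockouts. Quantile normalization within each line put it at -0.17 for overexpressors and at -0.02 for knockouts, where its sign turned. Slc2a4 itself read 625, 1109.7 and 1042 in overexpressors and 639, 583 and 1212 in their controls, overlapping (limma adjusted p = 0.930). It read 377.5, 365 and 363 in knockouts, against 416, 514 and 614 in their controls, with no overlap but no call (adjusted p = 1). The labels do not give the transgene's species or the deleted exons, so this probe set may not read either change.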

How the data were processed

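RNA from perigonadal fat of 12 mice was extracted with the RNeasy kit and hybridised at a core facility, per the labels' protocols. The authors deposited 1 intensity per probe set and array. How the probes were summarised and scaled is not given in the sources used here, nor is a genome build. Groups came from the sample titles, 3 mice each. The p-values rest on the spread between mice within groups, pooled over all groups and not taken from the compared groups alone. For these markers that spread differed between overexpressors and their controls, which the pooled test did not take into account.

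A constant of 36.92 (the 10th percentile of all intensities) was added before log2, and the 40% of probe sets with the lowest mean over 12 arrays were left out (4968, leaving 7454). Limma 3.58.1 in R 4.3.3 was fitted with 4 group means over all 12 arrays. Its prior variance followed the intensity, which gave 4.27 prior degrees of freedom beside the 8 residual ones. Each mutant group was set against its own control, and the difference between both changes was tested. Benjamini-Hochberg adjusted p-values were called at 0.05. An exact permutation test of 3 against 3 arrays cannot go below 0.1, so none is given. The procedure was also run on simulated data, with noise drawn for each probe set on its own. Such data do not copy genes that move together across arrays, so nothing is drawn from them here.

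Of 12422 probe sets, 10833 carry 1 gene symbol in the platform annotation, 396 several and 1193 none. A gene with several tested probe sets was stood for by the brightest. The text names all probe sets of the members, up to 3 genes per other list and comparison with the smallest p, called genes, and the 10 genes most correlated with the members. The members and lists were chosen with earlier results of these data known. The alternatives changed the constant, the filter, the scaling, the trend, the arrays fitted, the probe set rule and a replicate block, and left out each array. The plots come from Python 3.11.15 and its matplotlib library (3.10.9).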

Additional observations from a re-analysis of the deposited data

How the results depend on the processing

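No member was called in either comparison under any of the alternatives run, with a lowest limma adjusted p of 0.253 for overexpressors (Csf1r, without control 3) and 0.859 for knockouts (Cd68). Over all probe sets, 6 were called for overexpressors, 11 with arrays centred on their medians, 11 with quantile normalization and 1 with the line's own 6 arrays, and 3 to 21 when 1 array was left out. For knockouts 9 were called, and 6 to 11 when 1 array was left out. The difference gave 12, and 1 without a filter, and 1 to 13 when 1 array was left out. With the replicate number as a block, 5 were called for overexpressors, 0 for knockouts and 1 for the difference. The sample titles do not say whether the numbers pair the mice. Same-numbered deviations correlated at -0.06, -0.09 and 0.02 in the overexpressor line and at -0.23, -0.04 and -0.35 in the knockout line. With so few arrays, such values cannot show whether mice were paired. For knockouts, quantile normalization gave -0.0176 for Adgre1 and -0.055 for the brighter Laptm5 probe set, and the 25th percentile as the constant gave 8e-04 for Lyz2. Leaving out 1 array at a time, the overexpressor log2 change ran from -0.59 to 0.0521 for Lyz2, from -0.46 to 0.25 for Ctss and from -0.53 to 0.0305 for the brighter Laptm5 probe set, each lowest without control 3 and highest without control 1. The knockout change ran from 0.05 to 0.42 for Cd68, -0.14 to 0.19 for Adgre1, -0.035 to 0.20 for Csf1r, -0.23 to 0.18 for Lyz2, -0.11 to 0.0749 for Cd14, -0.15 to 0.35 for Mrc1, -0.18 to 0.13 for Ctss, -0.13 to 0.16 and -0.0803 to 0.20 for the brighter and dimmer Laptm5 probe sets, and -0.0168 to 0.16 for Msr1. The count of genes with the smaller SD in overexpressors, 9 with Msr1, was 8 to 9. This, the counts without Msr1 and Mmp12 without a filter were chosen after seeing the data. The cause of these shifts was not tested.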
